A study of Mus musculus with 12 samples.

Results

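The cells described here are macrophages rich in transcripts of complement component C1q, taken from mouse tumours during rejection or continued growth. A tumour cell barcode was counted as a C1q-high macrophage when it held at least 3 UMIs (unique molecular identifiers, each standing for 1 captured RNA molecule) of C1qa, C1qb and C1qc together and at least 1 of Tyrobp, at most 1 of Ly6c2 and at most 1 of Arg1, and none of Cd3e or Cd3g. By this rule 3151 cells were C1q-high macrophages, of 50416 tumour cells that passed the quality filters and could be assigned to a tumour. The rule used raw counts of these same cells, so the levels of its 8 genes are given as a description only.

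The series followed tumours grown from 5 lines in the setting of melanoma rejection, by 10x Genomics 5′ single-cell RNA sequencing of sorted live cells marked with hashtag antibodies. Lines SCC31 and SCC40 are called rejected and lines SCC32, SCC35 and SCC37 non-rejected in the authors' hashtag table, which also gives the day of each tumour. Tumours were listed for days 6, 10 and 16 in all lines, and for day 20 in the non-rejected lines, beside day 0 samples of cells. The mouse strain, sex and age, and the agents given if any, were not given in the sources used here. Each line had a library of its own with tumours 1 and 2 of each day, and a mixed library held tumour 3 of SCC31 and SCC40 (days 6 and 10) and of SCC35 (days 6, 10 and 20).

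C1q is the recognition molecule of the classical complement pathway, assembled from the products of C1qa, C1qb and C1qc, and tissue macrophages are a main source of it. Macrophages in tumours arise largely from blood monocytes, which carry Ly6c2 and lose it as they mature, and partly from macrophages resident in the tissue. Mature macrophages take up apoptotic cells and debris, handle lipids through proteins such as apolipoprotein E, and present peptides on MHC class II molecules.

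Of 43 listed tumours, 41 held an assigned cell and 38 held a C1q-high macrophage, while both SCC31 tumours of day 16 yielded no assigned cell. Tumours with at least 20 such cells entered the comparisons of genes, and these were 29 tumours with 3042 macrophages: 1 of SCC31, 8 of SCC32, 11 of SCC35, 6 of SCC37 and 3 of SCC40. Their summed UMIs ran from 52420 in SCC31 day 6 tumour 3 to 2728850 in SCC35 day 10 tumour 3, with a median of 255546. A single macrophage held a median of 3160 UMIs from 1383 genes. Between 41 and 498 barcodes were shared by each pair of libraries, and 282 of the 3151 macrophage barcodes occurred in another library, 12 of them as a macrophage there too. Scrublet called 372 of the macrophages doublets (11.8%, exact binomial 95% interval 10.7 to 13%), and they were kept, with values without them given as an alternative.

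The rule was set against day 0 cells, T cells and cells without Tyrobp. Among day 0 cells 14 of 7227 met it (0.194%, exact binomial 95% interval 0.106 to 0.325%). At least 3 C1q UMIs were held by 15 of 2484 tumour T cells (0.604%, median depth 2240 UMIs) and by 351 of 33796 cells without Tyrobp and Cd3 (1.04%, median 5123 UMIs), against 4561 of 12187 Tyrobp-positive Cd3-negative cells (37.4%, median 2485 UMIs). Free RNA can give such UMIs, and these shares are an approximate background for the macrophage shares. The T cells were taken with 2 or more Cd3e and Cd3g UMIs and no Tyrobp, and a macrophage without a Tyrobp UMI would fall into the Tyrobp-negative class. Of the day 0 cells the labels give no more than the line.

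C1q transcripts were plentiful in most of the selected cells. The median was 24 C1q UMIs per cell, with an interquartile range of 10 to 51 and a maximum of 288, and 2754 of the cells held all 3 chains. At the edge of the rule, 152 cells had exactly 3 C1q UMIs (median depth 1400 UMIs), and 199 cells just outside had 2 (median depth 1492 UMIs). Apoe, which encodes the lipid carrier apolipoprotein E, stood at 902 CPM (counts scaled to 1000000 summed UMIs) in the cells at 3, at 342 CPM in the cells at 2 and at 3763 CPM over all members. Ms4a7, a macrophage membrane protein, gave 167, 73.8 and 697 CPM in that order, and Adgre1, which encodes the surface protein F4/80, gave 44.7, 26.8 and 208 CPM. Plac8, high in young monocytes, ran the other way among the members, at 513 CPM in the cells at the edge and 139 CPM over all. The markers Apoe, Ms4a7 and Adgre1, which the rule did not use, were present and stood lower at the edge of the rule. Ly6c2 was at 0 in 2740 members and at 1 UMI in 411, and 1147 cells were kept out by Ly6c2 alone, 136 by Arg1 alone and 127 by Cd3 alone.

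C1q-high macrophages made up a larger part of the tumour in late tumours than on day 6. Among all assigned cells of a tumour their mean share in SCC32 was 3.83% on day 6, 7.01% on day 10, 12.5% on day 16 (16.6 and 8.31% in its 2 tumours) and 6.64% on day 20. In SCC35 it was 4.17%, 15.2%, 13.7% and 7.73% on those days, the day 10 mean resting on 26.4% in the mixed-library tumour 3 beside 8.57 and 10.7% in the others, and in SCC37 2.98%, 6.18%, 2.95% and 6.10%. The SCC37 tumours were 9.51 and 2.85% on day 10 and 0.886 and 5.01% on day 16. The rejected lines had few: SCC31 gave 0.604% on day 6 and 1.24% on day 10, and SCC40 gave 1.45%, 1.07% and 2.26% on days 6, 10 and 16. From day 6 to the last day of each line the share rose by 2.19 percentage points on average over the 5 lines (two-sided exact permutation test with days permuted within lines, p = 0.000819, 72000 permutations). Thinned to 1500 UMIs per cell, with shallower cells left out, the rise was 2.66 points (exact permutation p = 0.000639), so it was no smaller at equal depth.

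Among the myeloid cells the difference between early and late tumours was wider. As a share of Tyrobp-positive Cd3-negative cells, C1q-high macrophages were 8.58 and 9.35% in the 2 SCC32 tumours of day 6 and 35.1 and 55.2% in those of day 20. In SCC35 the 3 tumours of day 6 lay between 11.7 and 18.2%, the 2 of day 16 at 70.8 and 74.7%, and the 3 of day 20 between 54.2 and 74.5%. In SCC37 the share was 4.68 and 12.7% on day 6 and 34.0 and 37.4% on day 20. Tumours of day 6 and day 20 did not overlap in any of these lines, while in SCC37 a tumour of day 10 (8.71%) and a tumour of day 16 (7.41%) lay within the range of day 6. In SCC40 the share lay between 4.08 and 5.19% on day 6 and was 10.2 and 20.4% on day 16, and in SCC31 it lay between 0 and 2.42% on day 6 and was 5.32 and 12.5% on day 10, the latter being 2 of 16 cells. A further SCC31 tumour of day 10 held 3 assigned cells and no macrophage and was left out of means and test, as were all tumours under 20 assigned cells. The mean rise was 25.9 points (exact permutation p = 1.39e-05, the smallest that 72000 permutations can give), and 32.3 points after thinning to 1500 UMIs (exact permutation p = 2.31e-05). A share can rise because these cells increased or because other cells fell, and these cannot be told apart here.

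**Figure D1:**
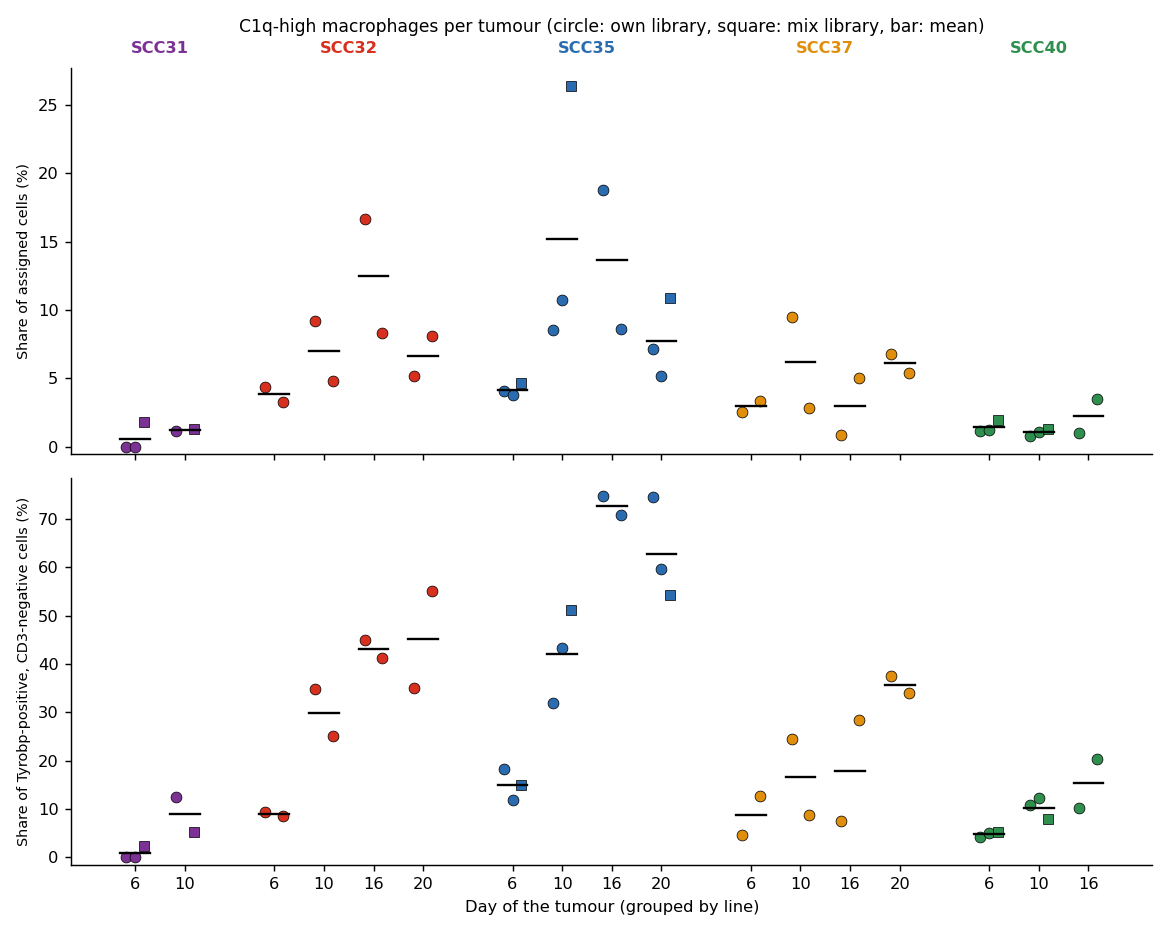
Share of C1q-high macrophages per tumour by day of the tumour within each line (horizontal axis), as percent of all assigned cells and as percent of Tyrobp-positive Cd3-negative cells (vertical axes), with circles for the line's own library, squares for the mixed library and bars for the mean. Among Tyrobp-positive cells the SCC35 tumours of day 16 reach 70.8 and 74.7%, while the SCC40 tumours of day 16 lie at 10.2 and 20.4%.

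Beside the Ly6c2-high monocytes of the same tumours, the C1q-high macrophages had the macrophage genes high and the monocyte genes low. This was described over 25 tumours with at least 20 cells of each class (2465 macrophages and 3229 monocytes), with no test, since both classes were chosen on counts of these cells. The median log2 ratio of CPM was 2.0 for Apoe, 1.99 for Ms4a7 and 1.90 for Adgre1, each higher in the macrophages of 25 of 25 tumours. It was 3.06 for Pf4, a chemokine of platelets and macrophages (25 of 25 tumours), 2.02 for Cx3cr1, the receptor of fractalkine (23 of 25), and 1.99 for Mrc1, the mannose receptor (22 of 25). The monocyte genes stood lower in the macrophages, Plac8 at -2.92 and Chil3 at -3.56, in 25 of 25 tumours. The MHC class II gene H2-Ab1 had a ratio of -0.17 and was higher in the macrophages of 9 tumours. The interferon-induced gene Isg15 stood lower in the macrophages (-0.66, 25 of 25 tumours).

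The change with time within the macrophages was tested on counts summed per tumour with edgeR's quasi-likelihood test, with p-values adjusted by Benjamini-Hochberg over 6800 genes and a gene called at an adjusted p under 0.05. Only SCC32 and SCC35 had at least 2 tumours on day 6 and on each later day, so the time comparisons average those lines, and all 3 share their day 6 tumours. Against day 6, 22 genes were called on day 10 (0.324% of the genes tested), 12 higher (0.176%) and 10 lower (0.147%). On day 16, 156 genes were called (2.29%), 107 higher (1.57%) and 49 lower (0.721%). On day 20, 327 genes were called (4.81%), 232 higher (3.41%) and 95 lower (1.4%). Early and late tumours were fully apart in SCC32 and in SCC35, in 1 direction, for 3.1%, 9.51% and 7.62% of all genes tested on days 10, 16 and 20. A term for the library raised these counts to 126 (1.85%), 622 (9.15%) and 677 (9.96%), and without the mixed library they were 120, 556 and 590. Leaving out 1 tumour at a time gave between 0 and 77 calls on day 10 (0 without SCC32 day 10 tumour 1), between 55 and 262 on day 16 (55 without SCC32 day 16 tumour 1, 262 without SCC35 day 10 tumour 3), and between 127 and 475 on day 20 (127 without SCC32 day 20 tumour 2).

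Genes of mature macrophages rose. Of the 14 macrophage identity genes tested, 10 rose and none fell from day 6 to day 20, with a median log2 fold change of 1.19 against -0.014 over all genes. The count fell to 4 without SCC32 day 6 tumour 1 and was 12 with a library term. Apoe stood at 576 and 1248 CPM in the SCC32 tumours of day 6 and at 4906 and 12310 CPM in those of day 20. In SCC35 it was 1227, 977 and 1397 CPM on day 6 and 8664, 7520 and 7336 CPM on day 20. Every late tumour of both lines was above every day 6 tumour, and the level went from 1085 ± 322 (SD, n = 5) to 8147 ± 2700 CPM (SD, n = 5), a log2 fold change of 3.05 ± 0.29 (SE, edgeR adjusted p = 1.65e-06). On day 10 the Apoe rise was 1.4 ± 0.27 (edgeR adjusted p = 0.0191) and on day 16 2.31 ± 0.29 (adjusted p = 5.95e-05). The day 10 call was lost when tumours with 10 to 19 macrophages were added (edgeR adjusted p = 0.431), as was the Cx3cr1 call of day 16 (adjusted p = 0.0667). Those fits averaged other lines, since SCC37 and SCC40 then entered on day 10 and SCC40 on day 16. Added tumours and added lines cannot be told apart there. In SCC37, which the averages with at least 20 macrophages per tumour do not use, Apoe was already 4861 CPM in the day 6 tumour with enough cells. It was 4391 and 4617 CPM on day 20, and 302 CPM in the other day 6 tumour, which had 16 macrophages.

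Cx3cr1 moved in the same way. It was 36.5 and 84.8 CPM in SCC32 on day 6 and 271 and 454 CPM on day 20, and 24.5, 32.3 and 23.5 CPM in SCC35 on day 6 and 278, 189 and 476 CPM on day 20. No late tumour reached down to the early ones, and the log2 fold change was 1.94 ± 0.37, 2.91 ± 0.36 and 3.21 ± 0.36 on days 10, 16 and 20 (edgeR adjusted p = 0.0172, 5.95e-05 and 9.81e-06). Lyz2, the lysozyme of myeloid cells, rose by day 20 (1.95 ± 0.20, edgeR adjusted p = 5.23e-06), as did Csf1r, the receptor of the macrophage growth factor CSF1 (1.53 ± 0.21, adjusted p = 9.56e-05). Adgre1 (1.26), the lysosomal protein gene Cd68 (1.02), the transcription factor gene Maf (1.12), the apoptotic cell receptor gene Mertk (1.93), the lipid receptor gene Trem2 (1.34) and the anaphylatoxin receptor gene C3ar1 (0.82) rose by day 20 as well. Ms4a7 did not pass (1.05 ± 0.33, edgeR adjusted p = 0.0676), although it did with the library as a term (adjusted p = 7.24e-05), and its SCC35 tumours of the mixed library on days 6 and 10 (908 and 1115 CPM) stood above those of the line's own library on those days (267 to 541 CPM).

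Genes found in tissue-resident macrophages rose too, 4 of the 8 tested by day 20, with a median of 1.53, and 2 of them without SCC32 day 20 tumour 2 or SCC32 day 6 tumour 1. Selenop, a selenium carrier, was 83.8 and 139 CPM in SCC32 and 123, 36.9 and 153 CPM in SCC35 on day 6, and 314 and 660 CPM and 547, 363 and 653 CPM on day 20. The groups did not overlap (log2 fold change 2.33 ± 0.31, edgeR adjusted p = 8.91e-05). Pf4 (2.31 ± 0.36, adjusted p = 0.000309), Mrc1 (1.34) and the scavenger receptor gene Stab1 (1.73) were the others. The remaining 6 genes of the list, of 14, were below the filter on low counts.

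**Figure D2:**
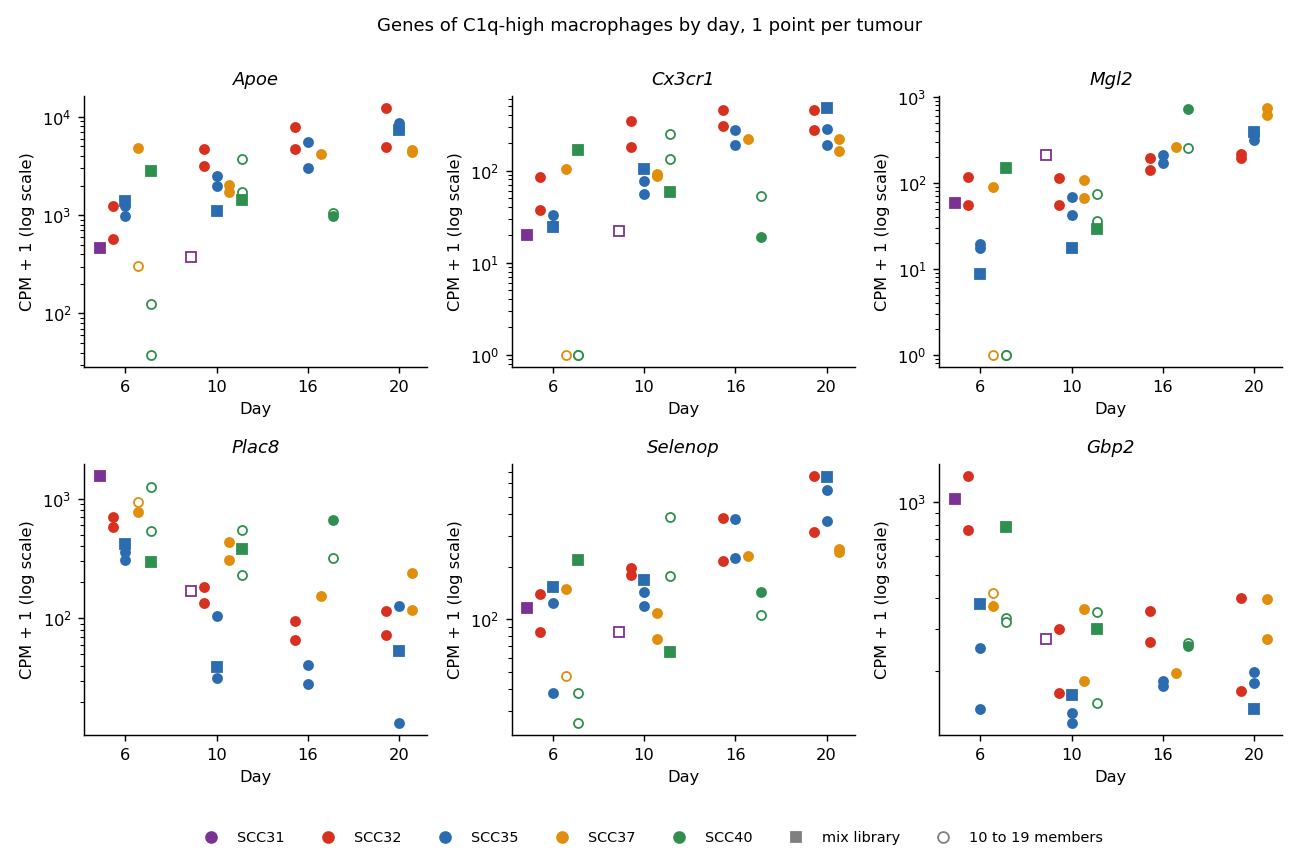
Level of 6 genes (CPM plus 1, log axis) in the C1q-high macrophages of each tumour by day, with 1 colour per line, squares for the mixed library and open symbols for tumours with 10 to 19 macrophages, which did not enter the test. Apoe goes from 1085 CPM on day 6 to 8147 CPM on day 20 over SCC32 and SCC35, and Plac8 from 471 to 75.1 CPM.

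A few monocyte genes fell. Plac8 was 576 and 703 CPM in SCC32 and 303, 355 and 419 CPM in SCC35 on day 6. On day 16 it was 64.0 and 94.4 CPM and 39.1 and 27.0 CPM, and on day 20 114 and 71.4 CPM and 12.3, 126 and 51.7 CPM. All later tumours lay below all early ones in both lines, with log2 fold changes of -2.36 ± 0.35, -3.20 ± 0.38 and -2.67 ± 0.37 on days 10, 16 and 20 (edgeR adjusted p = 0.00525, 5.69e-05 and 0.00011). The call of day 10 was lost without SCC32 day 10 tumour 1. Chil3, a chitinase-like protein of monocytes and neutrophils, fell by day 16 (-4.10 ± 0.73, edgeR adjusted p = 0.00298). By day 20, 2 of the 10 monocyte genes tested fell, Plac8 and Ly6a, an interferon-inducible surface protein gene, and the list's median was -0.74. Without SCC32 day 20 tumour 2 or SCC32 day 6 tumour 1, 1 was called. The C1q and Ly6c2 limits of the rule touch this axis, since C1qa itself, a rule gene, was 1604 and 1533 CPM in SCC32 and 949, 816 and 1229 CPM in SCC35 on day 6, and 3894 and 4006 CPM and 2970, 2424 and 2641 CPM on day 20.

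MHC class II genes rose by day 20 in 5 of 13 tested genes, with a median of 0.82, and in 8 with a library term. Cd74, the invariant chain that guides class II molecules to the lysosome, was 8574 and 8121 CPM in SCC32 on day 6 and 16434 and 18691 CPM on day 20. In SCC35 it was 3550, 3156 and 5302 CPM on day 6 and 10753, 9530 and 13221 CPM on day 20. The 2 days did not overlap within either line, and the log2 fold change was 1.35 ± 0.18 (edgeR adjusted p = 8.91e-05). H2-Eb1 (1.46), H2-Aa (1.2) and H2-Ab1 (1.0), the chains that bind peptide, and H2-DMb1 (0.82), a subunit of the peptide loading factor, made up the rest. H2-M2, a class I-like gene outside the lists, had 0 counts in 1034186 UMIs of day 6 and 139 counts in 2257156 UMIs of day 20, at least 21.2-fold higher against a floor of 3 counts over the day 6 group. Its level on day 20 was 43.2 and 77.2 CPM in SCC32 and 59.2, 23.7 and 72.6 CPM in SCC35, and it was also 90.3 and 99.0 CPM in SCC37, where the day 6 tumour had 0. None of the 13 MHC class I genes of the list was called on day 20 by edgeR or DESeq2 (median -0.31), and 3 had an unadjusted edgeR p under 0.05, all lower. With a library term 3 fell.

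Genes induced by interferon gamma did not follow the class II genes. Of 20 tested, 4 fell and 1 rose from day 6 to day 20, with a median of -0.46, and the count of calls ran from 1 (without SCC32 day 20 tumour 2) to 7 over the tumours left out. Gbp2, a guanylate-binding protein gene, was 1276 and 764 CPM in SCC32 and 139, 249 and 380 CPM in SCC35 on day 6, and 400 and 166 CPM and 178, 197 and 139 CPM on day 20. Early and late tumours were apart in SCC32 and overlapped from 139 to 197 CPM in SCC35, and the change was -1.2 ± 0.27 (edgeR adjusted p = 0.00929). The GTPase genes Igtp (-1.07) and Irgm1 (-1.04) and Socs1 (-1.22), an inhibitor of cytokine signalling, fell as well, while the T cell attractant Cxcl9 rose (1.02 ± 0.28, edgeR adjusted p = 0.034). Of 15 type I interferon response genes, Ifit1 (-1.04) and Zbp1 (-0.74) fell, with no call left without SCC32 day 20 tumour 1. The summed level of 12 T and NK cell markers within the macrophages was 54.8 to 685 CPM in the day 6 tumours, 18.3 to 29.8 CPM on day 16 and 8.80 to 133 CPM on day 20, all 12 being detected. Gzmb, the cytotoxic granule protease and 1 of those markers, fell by day 16 (-4.02 ± 0.75, edgeR adjusted p = 0.00436, a call lost without SCC32 day 6 tumour 2), with a median of 618 CPM in T cells against 5.63 CPM in the macrophages of the same tumours. The part of these markers in the interferon results was not tested.

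Changes in lists of other functions were fewer. Over all genes tested 3.41% were called higher and 1.4% lower on day 20, and no list was tested against these shares. Mgl2, a galactose-type lectin gene of alternatively activated macrophages, was 117 and 54.5 CPM in SCC32 and 16.4, 18.4 and 7.83 CPM in SCC35 on day 6, and 216 and 194 CPM and 380, 316 and 387 CPM on day 20. The late tumours all stood above the early ones (3.02 ± 0.35, edgeR adjusted p = 1.16e-05), and SCC37 had 88.9 CPM on day 6 and 748 and 621 CPM on day 20. Tgfb1, the cytokine TGF-beta 1, rose by 0.87 ± 0.19 (adjusted p = 0.00932), and these were the 2 calls among the 7 tested genes of that list (1 without SCC32 day 20 tumour 2 or SCC32 day 6 tumour 2). Trf, the iron carrier transferrin, was the only call among 10 iron and haem genes (6 with a library term, all higher), at 18.2 to 39.1 CPM on day 6 and 82.4 to 267 CPM on day 20 (2.92 ± 0.42, edgeR adjusted p = 0.00016). Of 12 phagocytosis receptors 3 rose, Fcgr2b (1.1) and Fcgr3 (0.92), which bind immunoglobulin G, and Axl (0.68), which binds apoptotic cells. The count was 1 without SCC32 day 20 tumour 2 or SCC32 day 6 tumour 2, and 5 with a library term. Of 9 inhibitory ligands and receptors, Pilra (1.71) and Siglec1 (1.43), a receptor for sialic acid, rose.

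Some inflammatory and metabolic genes also moved by day 20, beside 4.81% of all genes called. Of 15 inflammatory cytokine genes 3 rose, Il1b, which encodes interleukin-1 beta (1.19 ± 0.22, edgeR adjusted p = 0.00191), Nfkbiz (0.80), a regulator of NF-kB, and Ccrl2 (1.61), with 2 called without SCC32 day 20 tumour 2 and 6 with a library term. Of 13 glycolysis and hypoxia genes 4 fell, namely Pgk1 (-0.67), Bnip3 (-1.16), Ndrg1 (-1.36) and Hif1a (-0.91), the last encoding a subunit of the hypoxia factor, with a list median of -0.48 and between 0 (without SCC32 day 20 tumour 2) and 5 calls over the tumours left out. Of 19 lipid and lysosome genes, Psap (0.79) and Grn (0.57) rose and Plin2, a lipid droplet coat gene, fell (-1.49), with 1 to 7 called when single tumours were left out (1 without SCC32 day 20 tumour 2, among others). Of 13 complement genes besides C1q, Cfp (0.75), which encodes properdin, Itgax (1.29), a chain of complement receptor 4, and C3ar1 rose, with no complement call left without SCC32 day 6 tumour 2. The chemokine Ccl24 fell (-4.72) and Cxcl16 rose (0.90), 2 of 14 chemokine genes, with no call left without SCC32 day 20 tumour 2 or SCC32 day 6 tumour 2. No cell cycle gene of 17 was called by edgeR or DESeq2, and 1 had an unadjusted edgeR p under 0.05.

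**Figure D3:**
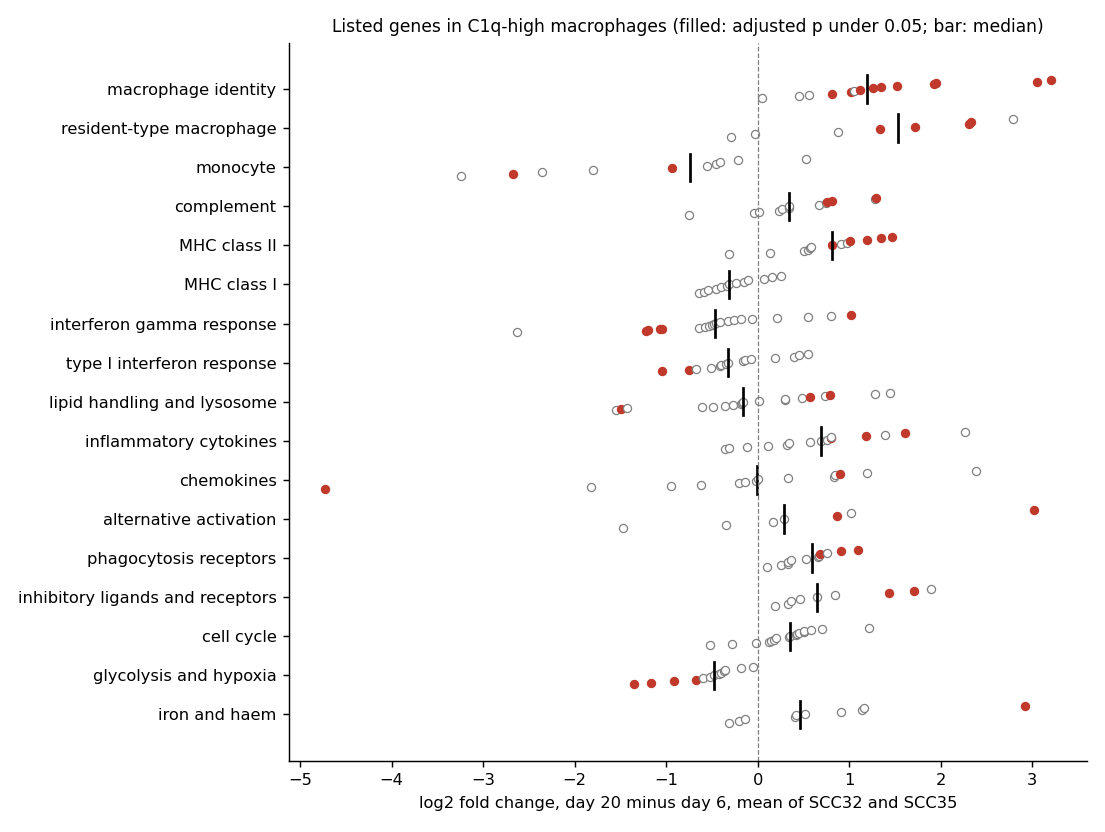
Log2 fold change from day 6 to day 20 (mean of SCC32 and SCC35, horizontal axis) of each tested member of the gene lists (vertical axis), filled where the edgeR adjusted p was under 0.05, with a bar at each list's median. The macrophage identity genes lie to the right with a median of 1.19, the interferon gamma genes to the left with -0.46.

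Among single genes, the largest changes between early and late tumours that did not overlap within a line included genes outside the lists. Tlr12, a Toll-like receptor gene, was 21.9 and 18.2 CPM in SCC32 and 8.18, 0 and 0 CPM in SCC35 on day 6, and 62.8 and 77.2 CPM and 63.3, 15.8 and 61.6 CPM on day 20. The days were apart within each line (3.32 ± 0.56, edgeR adjusted p = 0.000698). Hlx, a homeobox gene, rose by day 16 (2.49 ± 0.44, edgeR adjusted p = 0.00298), and so did Slc13a3, a dicarboxylate transporter gene (2.63 ± 0.59, adjusted p = 0.0166). Lilra5 went from 1 count to 61 between day 6 and day 20, a ratio of 27.9 (interval 4.83 to 1122, counting error only), and Gpr34, a lysophospholipid receptor gene of macrophages and microglia, from 1 to 64 (29.3, interval 5.08 to 1176). Ccl24, an eosinophil attractant, fell 53.5-fold by day 16 (42 counts to 3, interval 17.1 to 270), a call lost without SCC32 day 6 tumour 2. Flt1, a receptor of the VEGF family, was 91.1 and 78.8 CPM in SCC32 and 24.5, 18.4 and 35.2 CPM in SCC35 on day 6, and 3.92 and 5.71 CPM and 6.13, 15.8 and 4.40 CPM on day 20. The early tumours were all higher (-2.89 ± 0.48, edgeR adjusted p = 0.00068). The 7 endothelial markers of the lists, of which Flt1 is 1 and Cldn5 was at 0, summed to 41.5 to 133 CPM on day 6, 35.2 to 43.7 CPM on day 16 and 23.5 to 39.5 CPM on day 20, and their part in the Flt1 result was not tested.

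Between lines, the macrophages differed in genes of several of the lists. Over days 6, 10 and 16, 1129 of the 6800 genes differed between the macrophages of SCC32 (6 tumours), SCC35 (8), SCC37 (4) and SCC40 (3), or 16.6% of the genes tested. The tumours of the highest and the lowest line did not overlap in 21.1% of the genes. A library term gave 1755 calls (25.8%), and leaving out single tumours gave 506 to 1414, the lowest without SCC40 day 10 tumour 3, with 547 without SCC40 day 16 tumour 2 and 556 without SCC37 day 16 tumour 2. SCC32 and SCC37 had no tumour in the mixed library, so their line and their library cannot be told apart, and the rejected outcome is represented by SCC40 alone. Gm42418, a locus that collects reads of ribosomal RNA, was 89405 CPM in SCC37, 46027 in SCC35, 33986 in SCC32 and 24484 in SCC40, and its part in the line differences was not tested. Line levels below are means of the line's 3 day means. The called genes were highest in SCC35 313 times, in SCC37 287, in SCC32 282 and in SCC40 247 times. They were lowest in SCC37 412 times, in SCC40 320, in SCC35 294 and in SCC32 103 times, and the list counts below stand beside these. Without Scrublet calls 177 genes were called, on days 6 and 16 only, 173 of them among the 1129.

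Interferon-induced genes differed between the lines as a list. All 15 type I interferon response genes tested were called, 11 being highest in SCC32 and 4 in SCC37, and 11 being lowest in SCC35 and 4 in SCC40. Isg15, a ubiquitin-like protein induced by interferon, had a mean of 1766 CPM in SCC32 (range over tumours 1118 to 2621), 1221 in SCC37 (1060 to 1363), 1148 in SCC40 (677 to 1455) and 569 in SCC35 (379 to 837). Every SCC35 tumour lay below every tumour of SCC32 and SCC37, while SCC40 overlapped the other lines (edgeR adjusted p = 8.07e-06). Irf7, the transcription factor that amplifies type I interferon, was 783 CPM in SCC32 (442 to 1222) and 639 in SCC37 (547 to 741), above 299 in SCC35 (233 to 391) and 265 in SCC40 (232 to 293), and the upper and the lower pair of lines did not overlap (adjusted p = 8.07e-06). The median ratio of SCC32 to SCC35 over the 15 genes was 2.79, with SCC32 the higher in 15 of 15.

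The promoters of some of these genes are printed to show the letters that interferon-driven factors are known to bind, since the list moved together between lines. The sequences are from RefSeq (GRCm38.p6), run 5′ to 3′ on the gene's strand from 250 bases before to 50 bases after the start of the gene, and capitals mark GAAA, any 2 bases and GAAA again, the core of the interferon-stimulated response element, found on either strand. Isg15 lies at chr4:156200769-156201068 on the minus strand and holds 3 matches, Rsad2, an antiviral enzyme gene, at chr12:26456403-26456702 on the minus strand and holds 1, and Ifit3, an antiviral RNA-binding protein gene, at chr19:34583279-34583578 on the plus strand and holds 2.
Isg15: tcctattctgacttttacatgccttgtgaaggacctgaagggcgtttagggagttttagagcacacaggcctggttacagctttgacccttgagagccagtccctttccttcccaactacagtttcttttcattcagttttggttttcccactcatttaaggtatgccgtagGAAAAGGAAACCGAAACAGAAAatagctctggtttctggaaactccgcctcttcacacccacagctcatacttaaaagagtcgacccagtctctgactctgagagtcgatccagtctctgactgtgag
Rsad2: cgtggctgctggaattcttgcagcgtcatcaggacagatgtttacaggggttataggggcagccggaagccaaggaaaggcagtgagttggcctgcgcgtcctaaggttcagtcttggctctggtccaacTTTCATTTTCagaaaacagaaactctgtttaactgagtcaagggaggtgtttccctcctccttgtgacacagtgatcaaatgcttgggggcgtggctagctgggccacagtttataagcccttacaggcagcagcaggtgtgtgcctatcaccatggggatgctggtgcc
Ifit3: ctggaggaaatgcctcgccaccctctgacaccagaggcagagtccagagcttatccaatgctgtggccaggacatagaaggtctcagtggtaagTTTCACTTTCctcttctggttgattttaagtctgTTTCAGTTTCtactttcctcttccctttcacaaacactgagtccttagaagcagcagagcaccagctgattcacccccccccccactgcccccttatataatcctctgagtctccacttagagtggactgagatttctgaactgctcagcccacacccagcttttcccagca
This motif stood in the window of 1079 of 27025 genes of the table (3.99%) and in 257 of the 5422 tested genes that could be matched by symbol (4.74%). Among the type I list it stood in 6 of the 12 matched genes (50%), and among the interferon gamma list in 10 of 15 (66.7%). No test was made of these shares, and a match is not a bound site.

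Many genes of interferon gamma signalling and of MHC class I were also highest in SCC32 and lowest in SCC35. Of 20 interferon gamma genes 17 were called, 14 of them highest in SCC32 and 16 lowest in SCC35, with a median SCC32 to SCC35 ratio of 2.61. Cxcl9 had means of 1300, 763, 754 and 380 CPM in SCC32, SCC37, SCC40 and SCC35 (edgeR adjusted p = 6.69e-05). All 13 MHC class I genes were called, 8 highest in SCC32 and 10 lowest in SCC35. H2-K1, a classical class I heavy chain, was 3514 CPM in SCC37 (3394 to 3826) and 3259 in SCC32 (2794 to 3890), whose ranges overlap, and 2198 in SCC40 (1852 to 2761) and 1776 in SCC35 (1502 to 2473), which lay below both (adjusted p = 0.000244). B2m, the light chain of class I, was 5709 CPM in SCC32 (5155 to 6203), 4744 in SCC37 (4240 to 5009), 3218 in SCC35 (2642 to 3764) and 3193 in SCC40 (2358 to 3801) (adjusted p = 3.93e-05). Fewer class I genes passed with at least 6 C1q UMIs per cell (3 of 13) or with cells of at least 1500 UMIs (2 of 13), where lines could be compared on day 16 only, while type I genes still passed in 8 and 7 of 15.

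In the interferon gamma list the promoters of Irf1, a transcription factor of the pathway, and Gbp7, a guanylate-binding protein gene, are shown with capitals for TTCNNNGAA, the gamma-activated site of interferon gamma signalling. Irf1 lies at chr11:53769764-53770063 on the plus strand with 1 match, and Gbp7 at chr3:142530086-142530385 on the plus strand with 2, from the same source and window.
Irf1: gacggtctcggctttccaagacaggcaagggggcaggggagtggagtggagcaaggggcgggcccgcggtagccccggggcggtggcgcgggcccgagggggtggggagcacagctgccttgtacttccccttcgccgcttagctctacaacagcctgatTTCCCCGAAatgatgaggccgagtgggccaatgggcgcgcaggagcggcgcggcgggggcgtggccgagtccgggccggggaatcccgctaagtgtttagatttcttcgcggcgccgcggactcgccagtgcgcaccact
Gbp7: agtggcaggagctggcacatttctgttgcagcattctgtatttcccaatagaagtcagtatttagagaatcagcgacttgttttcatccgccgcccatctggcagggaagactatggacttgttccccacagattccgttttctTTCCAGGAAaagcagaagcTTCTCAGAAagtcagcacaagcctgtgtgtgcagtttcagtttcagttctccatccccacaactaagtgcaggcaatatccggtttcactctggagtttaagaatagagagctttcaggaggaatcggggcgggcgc
The site stood in 6 of 15 matched interferon gamma genes (40%), in 1 of 12 type I genes (8.33%) and in 1 of 11 class I genes (9.09%), against 9.55% of all genes of the table and 7.95% of the tested genes. Neither motif overlapped the other in the windows shown, and these counts are a description.

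The low place of SCC35 was shared by other cells of its tumours. The high place of SCC32 was shared less evenly for the type I genes than for the interferon gamma genes. In the cells without Tyrobp and Cd3, all 15 type I genes, all 17 called interferon gamma genes and 12 of the 13 class I genes were lowest in SCC35. In the Ly6c2-high monocytes this held for 15 of 15, 17 of 17 and 9 of 13. Isg15 was 1453, 339, 761 and 582 CPM in the Tyrobp-negative cells of SCC32, SCC35, SCC37 and SCC40, and 2572, 1296, 1756 and 2112 CPM in their monocytes. SCC32 was highest in 9 of the 15 type I genes in the Tyrobp-negative cells and in 5 of 15 in the monocytes, beside 11 of 15 in the macrophages, and Isg15 in the monocytes stood higher in SCC40 than in SCC37. Of the called interferon gamma genes, SCC32 was highest in 16 of 17 in the Tyrobp-negative cells and 17 of 17 in the monocytes, beside 14 in the macrophages. Of the class I genes it was highest in 13 of 13 and 8 of 13, beside 8 in the macrophages. Within the mixed library, where SCC35 and SCC40 were run together, Isg15 in the macrophages was 837 CPM in SCC35 against 1455 in SCC40 on day 6, and 523 against 677 CPM on day 10. H2-K1 there was 2473 against 1980 CPM on day 6 and 1761 against 1852 CPM on day 10, so the lower class I level of SCC35 was not seen on both days within that library. Over days 6, 10 and 16, summed T and NK markers in the macrophages were 18.3 to 685 CPM in SCC32 and 16.5 to 81.8 CPM in SCC35, and their part in these differences was not tested.

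**Figure D4:**
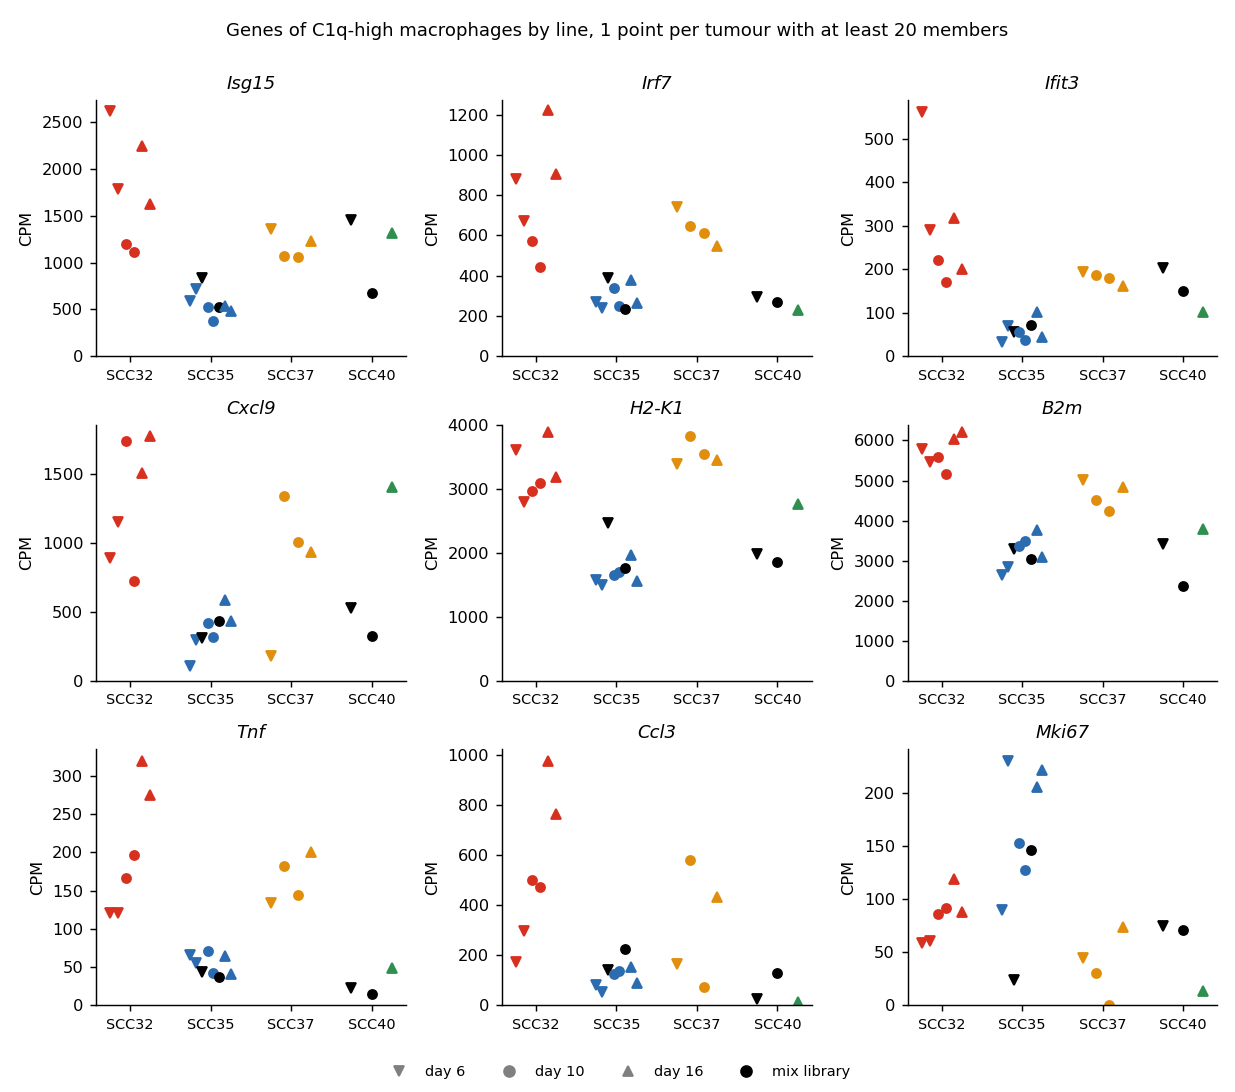
Level of 9 genes (CPM) in the C1q-high macrophages of single tumours of days 6, 10 and 16 by line, with black points for the mixed library. Irf7 and Tnf are higher in every tumour of SCC32 and SCC37 than in every tumour of SCC35 and SCC40, and Mki67 is highest on average in SCC35, at 157 CPM, although not in its mixed-library tumour of day 6.

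Cytokine genes differed between the lines as well. Of 15 inflammatory cytokine genes 11 were called, 9 highest in SCC32, with 8 to 14 called when single tumours were left out. Tnf, which encodes tumour necrosis factor, was 200 CPM in SCC32 (120 to 320) and 165 in SCC37 (133 to 200), against 52.5 in SCC35 (36.6 to 71.2) and 28.6 in SCC40 (14.2 to 49.1), with no overlap between the pairs (edgeR adjusted p = 4.34e-06). Its median over the 29 tumours was 71.2 CPM in the macrophages and 2.20 CPM in the Tyrobp-negative cells of the same tumours, higher in the macrophages of 28. The chemokine Ccl3 had means of 529, 307, 124 and 54.7 CPM in SCC32, SCC37, SCC35 and SCC40 (edgeR adjusted p = 7.77e-05), and 167 CPM against 2.84 CPM in the Tyrobp-negative cells (29 of 29 tumours). The Tyrobp-negative class leaves out cells with Cd3 or Tyrobp. Summed T and NK markers in the macrophages were 18.3 to 685 CPM in SCC32 and 15.1 to 329 CPM in SCC37. They were 16.5 to 81.8 CPM in SCC35 and 40.1 to 45.0 CPM in SCC40, and their part in the Tnf and Ccl3 differences was not tested. Of 13 complement genes 9 were called (5 without SCC37 day 16 tumour 2 or SCC40 day 16 tumour 2), among them Cfb, complement factor B, at 476, 375, 172 and 153 CPM in SCC32, SCC37, SCC40 and SCC35 (edgeR adjusted p = 8.07e-06), and it too was higher in the macrophages than in the Tyrobp-negative cells (234 against 14.3 CPM).

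Proliferation genes had another order. Of 17 cell cycle genes 11 were called, beside 16.6% of all genes tested, and all 11 were highest in SCC35. Over all 1129 called genes SCC35 was highest 313 times. Mki67, the proliferation antigen Ki-67, had means of 157 CPM in SCC35, 84.0 in SCC32, 53.2 in SCC40 and 44.4 in SCC37 (edgeR adjusted p = 0.00803), and Birc5, a protein of dividing cells, 106, 43.4, 48.5 and 41.6 CPM in that order (adjusted p = 0.000596). The high Mki67 level was not seen in the mixed-library SCC35 tumour of day 6. The number of cell cycle genes called fell to 3 without SCC37 day 16 tumour 2 or without SCC40 day 16 tumour 2, and to 3 with a hashtag ratio of 4. Of 13 MHC class II genes 9 were called, 6 of them highest in SCC40 and 7 lowest in SCC35. Cd74 was 11973 CPM in SCC40 and 11183 in SCC32, and 6694 in SCC37 and 5598 in SCC35. Of 13 glycolysis and hypoxia genes 5 were called, and all 5 were lowest in SCC37, with 2 called without SCC35 day 16 tumour 2, SCC37 day 16 tumour 2, SCC37 day 6 tumour 2, SCC40 day 16 tumour 2 or SCC40 day 6 tumour 3.

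Several genes with the widest range between lines stood lower in the macrophages than in the Tyrobp-negative cells. Of the genes named by this range, 1 kept its call without Scrublet calls and 11 lost it, the rest having no value there. Without the mixed library 10 kept their call and 10 lost it. By the size of that range the first were Akr1c18 (log2 range of line means 5.66), Il6 (5.36), Mme (5.05), Hspb7 (4.96), Pthlh (4.90) and Nppb (4.65), and the list went on with genes such as Krt18, a keratin (3.86), and Cryab, a small heat shock protein (4.39). Cryab was 397 CPM in SCC35 and 224 in SCC40, against 36.7 in SCC32 and 18 in SCC37 (edgeR adjusted p = 8.07e-06). In the Tyrobp-negative cells of the same tumours Cryab stood higher, at a median of 141 against 40.3 CPM over 29 tumours. So did Nppb at 79.3 against 7.90 CPM, Krt18 at 45.1 against 7.01 CPM and Il6 at 34.6 against 4.30 CPM. Il6 was at 0 in all SCC40 tumours and averaged 40.1 CPM in SCC32. The part of RNA from those cells in the line differences was not tested. Of 9 fibroblast markers 9 were detected in the macrophages over the 29 tumours, summing to 184 to 3571 CPM in the day 6 tumours of SCC32 and SCC35. Of 8 melanocytic markers 3 were detected over the 29 tumours, Mlana, Tyr, Tyrp1, Dct and Sox10 being at 0.

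The rejected lines had few tumours with enough macrophages, so their levels over time are given as values. The SCC31 tumour of day 6 in the comparisons had Apoe at 458 CPM, Cx3cr1 at 19.1 CPM and Plac8 at 1545 CPM. With Plac8 that high and Apoe that low it lay beyond every day 6 tumour of SCC32 and SCC35. The SCC31 tumour of day 10 with 10 to 19 macrophages had Apoe at 376 CPM and Plac8 at 167 CPM. In SCC40 Apoe was 3748, 1723 and 1439 CPM in tumours 1, 2 and 3 of day 10, of which tumour 3 had at least 20 macrophages. Cx3cr1 in the same order was 245, 133 and 57.0 CPM. The level in SCC40 thus varied over tumours of 1 day.

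Whether the rejected line SCC40 changed differently from the non-rejected lines SCC32 and SCC35 between day 6 and day 16 was tested as an interaction. SCC37 did not enter it, having fewer than 2 tumours with at least 20 macrophages on those days. The interaction rests on 1 SCC40 tumour on each day, each assumed to vary like the other tumours. By edgeR, 13 genes were called (0.191% of those tested), 10 higher (0.147%) and 3 lower (0.0441%), with 437 under a library term (6.43%) and 4 to 33 when single tumours were left out (4 without SCC32 day 16 tumour 1, 33 without SCC35 day 10 tumour 3). Apoe was 2805 CPM in the SCC40 tumour of day 6 and 977 CPM in that of day 16. Against the rises of SCC32 and SCC35 given above, this was a difference of -3.58 ± 0.69. In SCC37, which the test did not use, Apoe was also lower on day 16 (4182 CPM) than on day 6 (4861 CPM). Yet the other SCC40 tumours, with 10, 17 and 14 macrophages, gave 36.8 and 123 CPM on day 6 and 1060 CPM on day 16. With them included the difference was -2.28 (edgeR adjusted p = 0.445). The day 6 tumour came from the mixed library and the day 16 tumour from the line's own, so library and day cannot be told apart in SCC40. Plac8 was 293 CPM on day 6 and 660 on day 16 in the tested tumours, and 534 and 1251 CPM against 315 CPM in the small ones, so the direction was not shared by them.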

How the data were processed

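The deposited matrices hold raw UMI counts per gene, and hashtag counts, for each cell barcode of 6 libraries, which per the submitters' processing notes came from Cell Ranger 6.0.0 with mm10. Cells needed at least 300 genes, at most 15% mitochondrial counts, and their strongest listed hashtag had to reach 10 counts and exceed the runner-up 2 times or more, which kept 57643 of 80184 barcodes. The authors' deposited hashtag table gave line, outcome, tumour and day. The members and gene lists were chosen with earlier results of these data known.

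Counts of the macrophages were summed per tumour (at least 20 cells) and fitted with edgeR 4.0.16 in R 4.3.3 (TMM, filterByExpr, quasi-likelihood F-test, a mean per line and day, Benjamini-Hochberg). On counts simulated for the day 16 comparison (6832 genes) the fit recovered 15% of 2-fold and 81% of 4-fold changes, with 3 false calls. Every simulated gene had a dispersion of 0.1 and no difference between lines or libraries, so these values do not give the error rate in the real counts. Shares were tested with scipy 1.17.1. Alternatives were DESeq2 1.42.0, RLE scaling, other thresholds, tumours left out, Scrublet (scanpy 1.11.5) and a term for replicate or library. Genes named singly were called, reached a mean of 20 CPM and did not overlap between the sides, taken by size of change, besides list members. The labels do not say that tumours of a line came from separate animals, so p-values measure the spread between these tumours. Intervals cover counting error only.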

Additional observations from a re-analysis of the deposited data

Results flagged for a closer look

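The genes whose change from day 6 to day 16 was called different between SCC40 and the mean of SCC32 and SCC35 are given here. Beside each stands the difference of the log2 changes from the edgeR interaction test. Lower in SCC40 than in SCC32 and SCC35 by this measure were Apoe (-3.58), Cx3cr1 (-5.85) and Hbegf, a growth factor of the EGF family (-4.10). Higher were Plac8 (4.63), Ccl24 (7.33), Napsa (3.76), Srgn (3.05), Ly6i (4.12), Syngr2 (2.23), Jaml (5.39), Gda (5.31), Rap1a (1.96) and Ifitm1 (13.1). The Ifitm1 value depends on the prior count, since the SCC40 tumour of day 6 had 0 counts and that of day 16 had 132. In the small SCC40 tumours Ifitm1 was 0 CPM on both days. Ccl24 was 195 CPM in the tested SCC40 tumour of day 6 and 393 CPM in that of day 16. In the small tumours it was 0 and 147 CPM on day 6 and 0 CPM on day 16. Cx3cr1 was 165 CPM in the tested SCC40 tumour of day 6 and 17.8 CPM in that of day 16, but 0 CPM in both small day 6 tumours and 52.5 CPM in the small day 16 tumour, so these went the other way. The Rap1a call was lost in 19 of the 27 fits that left out a tumour. Hbegf was 1298 CPM in the tested SCC40 tumour of day 6 and 31.2 CPM in that of day 16, but 368 CPM in both small day 6 tumours and 262 CPM in the small day 16 tumour.

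Day 0 samples, which entered no comparison, held 14 cells that met the rule for C1q-high macrophages.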

How the results depend on the processing

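No result with a direction changed it under any alternative run that gave a value. The between-line test gives no direction, and some runs gave no value for some genes. Of the 89 named gene results, 722 values under other settings kept their call and 173 lost it; with single tumours left out 2201 kept it and 344 lost it. The share of assigned cells kept its call under every alternative run, between 2.08 and 2.82 points, and between 1.87 and 2.48 points with single tumours left out. With Tyrobp-positive cells as denominator the rise was 25.9 points, and 32.3 points thinned.

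The calls on day 10 (22), day 16 (156), day 20 (327), between lines (1129) and in the interaction (13) moved by over 1.5 times as follows. No filter on low counts gave 144, 354 and 516 on days 10, 16 and 20 and 97 in the interaction. A minimum of 10 cells gave 14 on day 10, 246 on day 16 and 23 in the interaction, and DESeq2 44 on day 10 and 36 in the interaction. That minimum also changed the lines averaged, bringing in SCC37 on days 10 and 20 and SCC40 on days 10 and 16. Without the mixed library there were 120, 556 and 590 calls on the 3 days. At least 6 C1q UMIs gave 4, 76 and 198 on the 3 days and 260 between lines. A hashtag ratio of 4 gave 361 between lines and 2 in the interaction. Without Scrublet calls there were 49 on day 10 and 177 between lines. The between-line values with fewer cells rest on fewer days, which were days 6 and 16 for the hashtag ratio and Scrublet and day 16 for C1q. Chosen after seeing the data, a library block gave 126, 622, 677, 1755 and 437 calls in that order, and cells of at least 1500 UMIs gave 3 on day 10 and 157 between lines. Otherwise the cause of these shifts was not tested.

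The replicate block gave 135, 621, 662, 1719 and 441 calls. Tumour numbers were not shown to pair the samples: residuals of tumours numbered 3, all of the mixed library, correlated at 0.467 to 0.682 in SCC35, those of other numbers at -0.162 to 0.393. With single tumours left out the calls ranged from 0 to 77, 55 to 262, 127 to 475, 506 to 1414 and 4 to 33 in that order, with 77 on day 10 without SCC35 day 6 tumour 3. The interaction gave no value without the mixed library, with 6 C1q UMIs, with 1500 UMIs, nor without SCC40 day 6 tumour 3 or day 16 tumour 2. Depth limits genes with few counts in the smaller tumours.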
